A study of Homo sapiens with 12 samples.

Results

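Lysosomal genes were followed in MDA-MB-231, a human breast cancer cell line of the triple-negative kind, after silencing of the long noncoding RNA CYTOR (LINC00152). The 36 genes comprised lysosomal proteases, glycosidases, lipid and acyl hydrolases, membrane and sterol-export proteins and subunits of the vacuolar proton pump, chosen by function. The platform annotation named 55 probes for 35 of them, among 20024 genes with a named probe, and no probe was named for CD63, a tetraspanin of late endosomes. The brightest probe represented each gene. A filter on low signal kept 34 of these 35 genes and 12706 genes in all, and CTSS did not reach it.

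Each array measured total RNA of cells transfected with 30 nM of a locked nucleic acid (LNA) gapmer, an antisense oligonucleotide that directs RNase H to its target RNA. The gapmer was directed against CYTOR on 6 arrays and was a control LNA on the other 6, both delivered with a lipid reagent for 24 h. The labels place 1 CYTOR LNA array and 3 control arrays in batch 1, and 5 CYTOR LNA arrays and 3 control arrays in batch 2. Whether the replicates are separate cultures is not in the labels, and the p-values therefore reflect the spread of these samples, possibly a technical one, within a single cell line.

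Lysosomes are acidic compartments that break down material delivered by endocytosis and autophagy. Their hydrolases are made as precursors, tagged with mannose 6-phosphate in the Golgi and carried to the organelle by receptors, while the vacuolar proton pump (V-ATPase) keeps the interior acidic. Many lysosomal genes carry E-box sites in their promoters that the transcription factors TFEB, TFE3 and MITF can bind, and tumour cells often secrete lysosomal cathepsins. V-ATPase consists of a cytosolic V1 sector that splits ATP and a membrane V0 sector that moves protons.

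The promoters of lysosomal genes are known for the E-box core CACGTG and the longer palindrome TCACGTGA, the centre of the motif named CLEAR. RefSeq promoter windows of 300 bases (GRCh38.p14, 250 before and 50 after the gene start) were matched for 26 of the 36 genes. ASAH1, ATP6V1A, ATP6V1B2, ATP6V1C1, ATP6V1H, CTSB, CTSS, HEXA, LAMP2 and PSAP had no entry. CACGTG was present on either strand in 9 of the 26 windows (34.6%), against 7.43% of 27305 RefSeq windows and 10.2% of the 10137 windows of tested genes. TCACGTGA, which contains CACGTG, was present in 5 (19.2%, against 1.04% of all windows and 1.96% of those of tested genes). The 210 bases from 200 before to 10 after the start are shown for the gene that rose (GAA), for 3 genes with CACGTG sites that did not pass the test, and for the gene with the largest fall (ATP6V1E1), with each CACGTG in capitals.
GAA, chr17:80101381-80101590, plus strand: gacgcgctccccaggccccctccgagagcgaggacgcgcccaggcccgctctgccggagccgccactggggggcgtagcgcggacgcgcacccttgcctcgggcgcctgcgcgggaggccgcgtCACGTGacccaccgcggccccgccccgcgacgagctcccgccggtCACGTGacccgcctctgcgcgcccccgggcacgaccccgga
MCOLN1, chr19:7522424-7522633, plus strand: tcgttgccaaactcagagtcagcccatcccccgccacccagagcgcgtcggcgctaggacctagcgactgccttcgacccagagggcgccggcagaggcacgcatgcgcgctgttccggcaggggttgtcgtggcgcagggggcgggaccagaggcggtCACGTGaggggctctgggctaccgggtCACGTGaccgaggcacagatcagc
LAMP1, chr13:113297039-113297248, plus strand: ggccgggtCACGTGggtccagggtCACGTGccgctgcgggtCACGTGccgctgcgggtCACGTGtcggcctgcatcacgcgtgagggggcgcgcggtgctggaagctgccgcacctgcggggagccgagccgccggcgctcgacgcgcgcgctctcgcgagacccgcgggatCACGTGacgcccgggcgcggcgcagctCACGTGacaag
CTSA, chr20:45891135-45891344, plus strand: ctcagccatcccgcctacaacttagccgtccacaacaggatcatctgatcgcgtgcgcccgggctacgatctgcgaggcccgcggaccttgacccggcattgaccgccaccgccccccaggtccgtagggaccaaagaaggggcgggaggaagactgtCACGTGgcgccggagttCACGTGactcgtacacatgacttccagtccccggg
ATP6V1E1, chr22:17628813-17629022, minus strand: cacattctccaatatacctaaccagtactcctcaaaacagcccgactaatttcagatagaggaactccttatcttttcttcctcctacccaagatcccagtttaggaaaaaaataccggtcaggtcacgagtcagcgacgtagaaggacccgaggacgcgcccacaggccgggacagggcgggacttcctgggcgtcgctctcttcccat
GAA and MCOLN1 each held 2 sites, both within TCACGTGA. CTSA held 2, of which 1 was within TCACGTGA, and LAMP1 held 6, of which 2 were. ATP6V1E1 held none in this window.

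The arrays carried the profile of this cell line. The mesenchymal and basal markers VIM, CD44, AXL, CAV1, MSN and EGFR averaged 8.04 to 13.32 on the log2 scale, where the array medians were 6.53. The luminal markers ESR1 and FOXA1 were below the signal filter of 6.52, CDH1, GATA3 and PGR were between 6.52 and 6.61, and EPCAM was at 7.91. Of the 6 mesenchymal and basal markers 2 fell at their brightest probe, CD44 (-0.21, limma adjusted p = 0.034) and EGFR (-0.18, limma adjusted p = 0.040). Their other tested probes were at -0.05 and 0.07 for CD44 and at -0.01 for EGFR. The calls were lost in 8 (CD44) and 13 (EGFR) of 27 alternative settings. Without CYTOR LNA replicate 2, CD44 was at -0.20 (limma adjusted p = 0.072). The part of both genes in the lysosomal values was not tested. CYTOR itself was 2.15-fold lower in the cells given its LNA at its brightest probe, ILMN_3220934 (log2 fold change -1.10, SE 0.058, limma adjusted p = 8.0e-13). At that probe the 6 silenced arrays lay between 6.64 and 6.86 and the 6 control arrays all at 7.72 or above. The dimmer CYTOR probes were 1.59-fold lower (ILMN_3230508, mean 6.88) and 1.09-fold lower (ILMN_3230572, mean 6.54, groups overlapping). The log2 fold change was -0.63 with the probes averaged and -2.06 at the brightest probe after background subtraction. CYTOR LNA replicate 2, the single silenced array of batch 1, stood apart from the rest: over all tested genes it was the highest of the 12 arrays for 14.2% and the lowest for 17.4%, and the next largest shares were 10.3% and 9.35%. Among the 34 lysosomal genes it was the highest array for 10 and the lowest for 8. Calls that change without this array are given both ways.

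Few lysosomal genes changed. In a limma fit with terms for group and batch, at a Benjamini-Hochberg adjusted p under 0.05, 2 of the 34 genes fell (ATP6V1E1 and ATP6V1C1, where 5.41% of all tested genes fell), 1 rose (GAA, where 2.49% rose) and 31 did not pass. These counts are close to the background shares. Unadjusted p-values under 0.05 were found for 3 lower genes, where 11.4% of all tested genes were lower, and for 7 higher genes, where 10.2% were higher. The median log2 fold change of the 34 genes was 0.04, beside 0.00 for all tested genes, and 25 of the 34 were above 0, where 52.1% of all tested genes were. Effects were small. ATP6V1E1 reached 1.36-fold and no other of the 34 genes reached 1.2-fold. Of the 31 genes that did not pass, 30 had 95% intervals within 0.3 of 0 on the log2 scale, so that larger changes were outside the interval for all but ATP6V0A1. In bulk RNA such as this, fewer cells with a transcript and less of it per cell cannot be told apart.

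**Figure D1:**
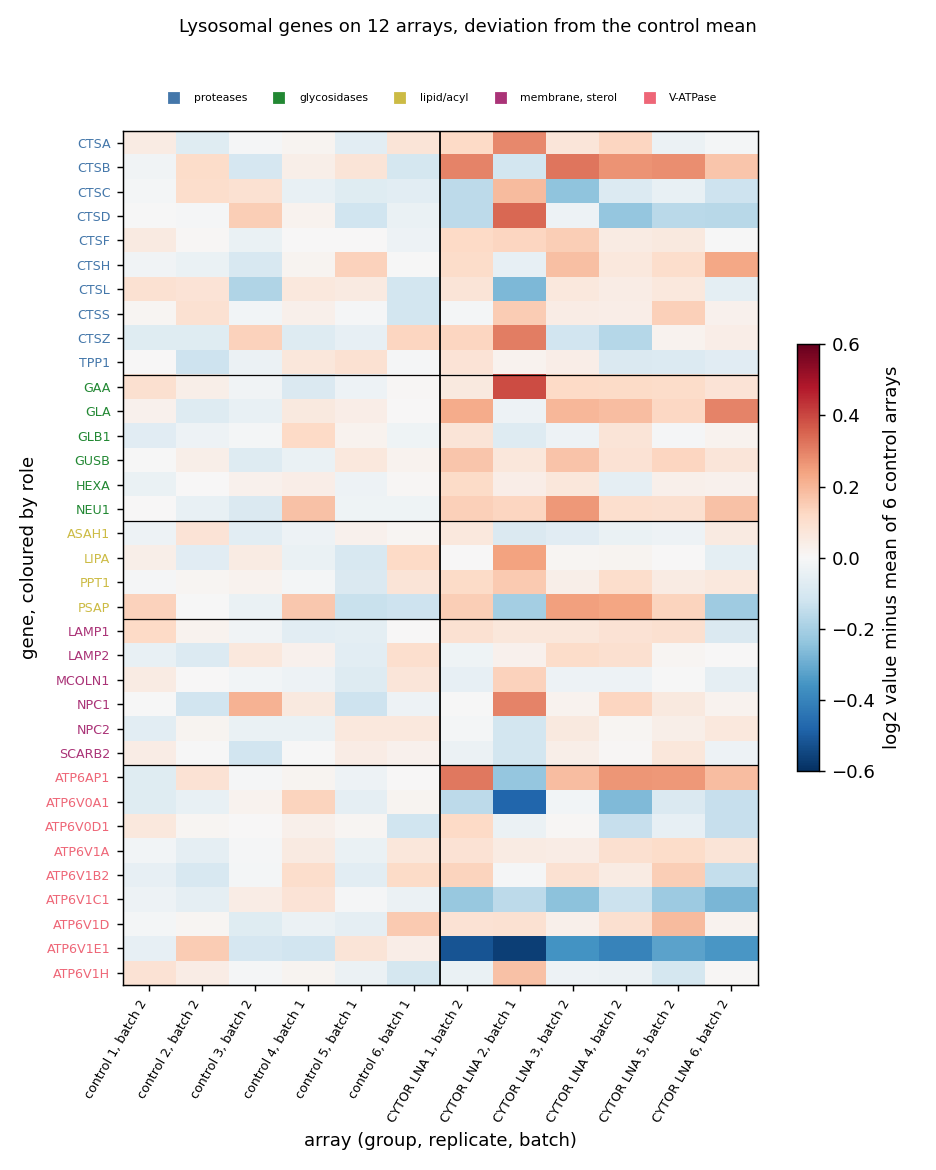
Deviation of each log2 value from the mean of the 6 control arrays, for 35 lysosomal genes (rows, coloured by role) on the 12 arrays (columns, by group, replicate and batch). ATP6V1E1 is low on all 6 CYTOR LNA arrays, and CYTOR LNA replicate 2 departs from the other 5 in both directions, with a range of -0.56 to 0.39 over the 34 tested genes.

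Without CYTOR LNA replicate 2 the set of called genes was larger on the rising side. The same 2 V-ATPase genes fell (4.49% of all tested genes fell in that fit) and 4 others rose: CTSB, GLA, NEU1 and ATP6AP1 (2.47% of all tested genes rose). GAA was no longer called. Batch 1 then held control arrays only, so this fit takes its differences from the 5 CYTOR LNA and 3 control arrays of batch 2. Of the 34 genes, 17 had differences of opposite sign in the 2 batches, and the median size of a difference was 0.14 in batch 1 and 0.07 in batch 2. Each batch 1 difference rests on 1 silenced array. The share of opposite signs over all tested genes was not computed, so the 17 cannot be read as particular to lysosomal genes. Among genes that passed in neither fit, leaving out replicate 2 moved CTSH from 0.11 to 0.19 (adjusted p = 0.058) and CTSA from 0.13 to 0.07. It moved CTSD from -0.03 to -0.20 (adjusted p = 0.058) and CTSC from -0.06 to -0.19 (adjusted p = 0.060). The log2 fold changes of LIPA (-0.01), MCOLN1 (-0.04), CTSZ (-0.02) and ATP6V1H (-0.08) were then below 0, and those of CTSL (0.04) and SCARB2 (0.03) above it.

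**Figure D2:**
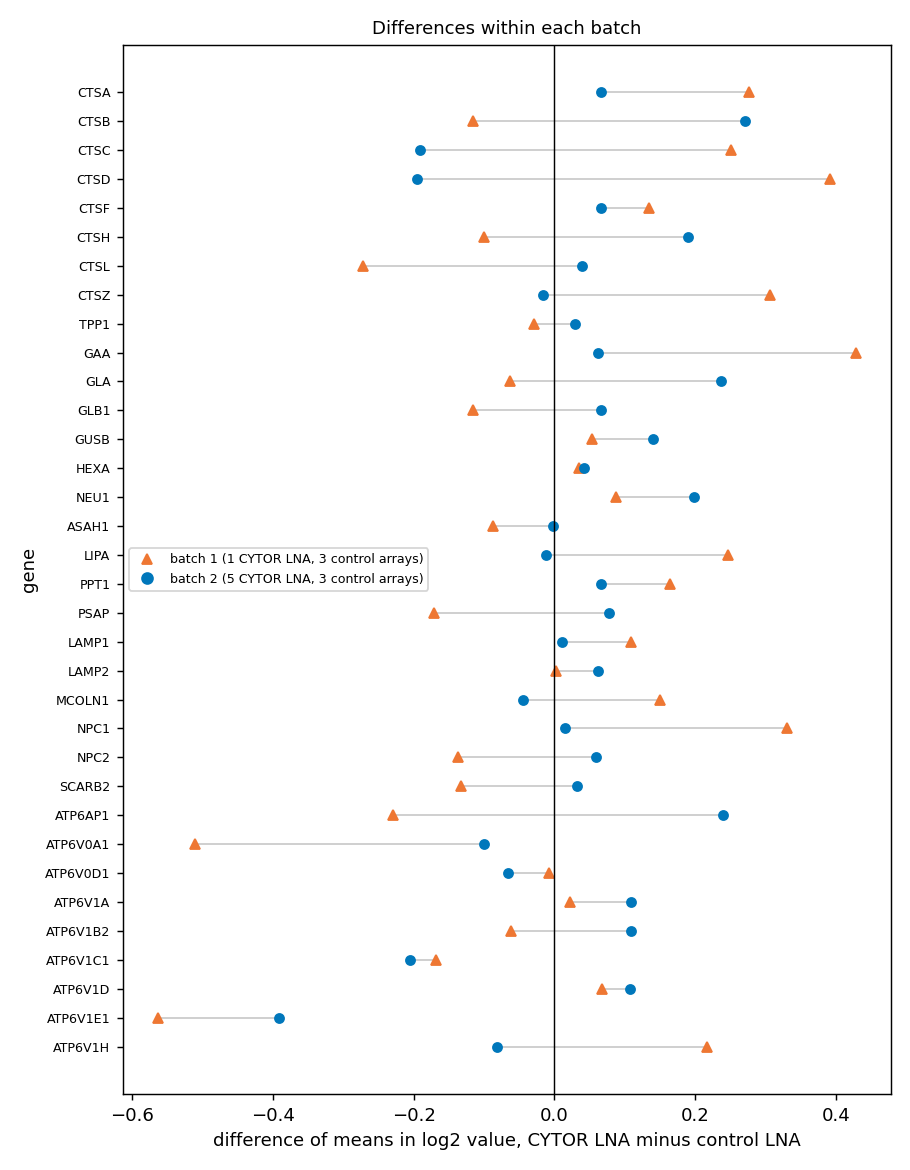
Difference between the group means in log2 value (CYTOR LNA minus control LNA, horizontal axis) within batch 1 (triangles, 1 CYTOR LNA array) and batch 2 (circles, 5 CYTOR LNA arrays) for each of the 34 tested genes. ATP6V1E1 and ATP6V1C1 lie below 0 in both batches, whereas CTSD, CTSC, CTSB and ATP6AP1 lie on opposite sides.

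Both genes that fell were among the 9 V-ATPase genes, of which 7 did not pass, where 5.41% of all tested genes fell. The number is too small to be read as a result about the pump. ATP6V1E1 encodes a subunit of the peripheral stalks that hold the V1 sector against the membrane sector. Its probe ILMN_2339779 had a lowest value of 9.96, a median of 10.15 and a highest value of 10.20 on the CYTOR LNA arrays. On the control arrays these were 10.41, 10.52 and 10.68. The groups did not overlap, as for 6.77% of all tested genes, and the log2 fold change was -0.44 (SE 0.062, 1.36-fold lower, limma adjusted p = 2.7e-05). The second probe of the gene, ILMN_1798485, gave -0.50 (SE 0.065), from 9.35 to 9.73 after the CYTOR LNA and from 9.93 to 10.15 after the control. Both probes were thus lower on each of the 6 silenced arrays. The difference was -0.56 within batch 1 and -0.39 within batch 2 at the brightest probe.

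ATP6V1C1, whose product joins the stalks to the membrane sector, differed by less. The values of ILMN_1659801 had a lowest of 7.66, a median of 7.72 and a highest of 7.81 after the CYTOR LNA. In controls they were 7.89, 7.92 and 8.02, again with no overlap between groups. The log2 fold change was -0.19 (SE 0.047, 1.14-fold lower, limma adjusted p = 0.011). Its second probe, ILMN_1663257, with a mean of 7.14, gave 0.00 (SE 0.048, adjusted p = 0.98), so the fall was seen at 1 of 2 probes, and averaging the probes gave an adjusted p of 0.10.

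ATP6V0A1, which encodes a proton-conducting subunit of the V0 sector, did not pass (-0.22, SE 0.067, adjusted p = 0.054). Its CYTOR LNA values had a lowest of 8.17, a median of 8.50 and a highest of 8.63, and its control values 8.58, 8.64 and 8.78. The lowest value was that of replicate 2. Without that array the log2 fold change was -0.10 (SE 0.062, adjusted p = 0.43). In 8 of 27 alternative settings the gene passed as lower, among them the fit without CYTOR LNA replicate 3 (adjusted p = 0.032) and adjustment over genes (adjusted p = 0.043).

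The remaining V1 subunits showed other values. ATP6V1A, the catalytic subunit, was at 0.08 (SE 0.050), ATP6V1B2, its partner in the V1 head, at 0.06 (SE 0.063) and ATP6V1D of the central rotor at 0.10 (SE 0.054), none past the test. The regulatory subunit ATP6V1H was at 0.00 (SE 0.059) and the V0 subunit ATP6V0D1 at -0.05 (SE 0.057). ATP6AP1, an accessory protein of the pump, was at 0.11 (SE 0.068, adjusted p = 0.44) with all arrays. Its replicate 2 value of 9.83 lay below the other 5 silenced arrays, which ran from 10.25 to 10.38, while the controls ran from 9.99 to 10.15. Without replicate 2 it rose by 0.24 (SE 0.059, adjusted p = 0.012), and that array alone differed by -0.23 from the controls of its batch.

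**Figure D3:**
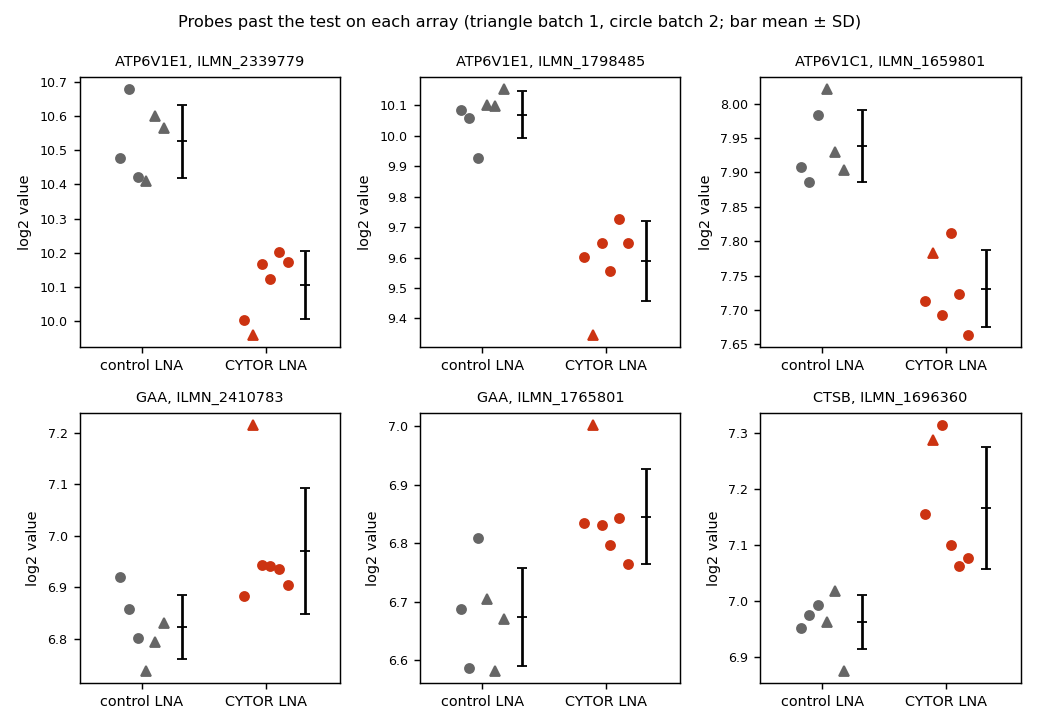
Log2 value on each array for the 6 probes of the 34 genes that passed the test, by group, with triangles for batch 1, circles for batch 2 and bars for the mean and SD of 6 arrays. Both ATP6V1E1 probes, the ATP6V1C1 probe and the CTSB probe separate the groups, and the GAA values of the CYTOR LNA group are led by its batch 1 array, at 7.21 for the brighter probe.

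All 6 glycosidase genes had fold changes above 0, where 52.1% of all tested genes did, and 1 passed the test. GAA, the acid alpha-glucosidase that breaks down glycogen, rose 1.12-fold (0.17, SE 0.049, limma adjusted p = 0.042). Its values after the CYTOR LNA had a lowest of 6.88, a median of 6.94 and a highest of 7.21, and in controls 6.74, 6.82 and 6.92, so the groups overlapped. The highest value was that of replicate 2. A second GAA probe gave 0.19 (SE 0.044, adjusted p = 0.0098). Without replicate 2 the brightest probe had a log2 fold change of 0.06 (SE 0.042, adjusted p = 0.49). With means under 7, GAA lay close to the array median, and its call was lost in 12 of 27 alternative settings.

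The sialidase gene NEU1 (0.17, SE 0.054, adjusted p = 0.071) and GLA, the alpha-galactosidase A gene (0.15, SE 0.059, adjusted p = 0.15), did not pass on all arrays. NEU1 values ran from 8.32 to 8.48 with a median of 8.36 after the CYTOR LNA, and from 8.14 to 8.40 with a median of 8.20 in controls. The control range of NEU1 was set by replicate 4, at 8.40, and the next control was at 8.22. For GLA the silenced values ran from 10.05 to 10.37 with a median of 10.27, and the controls from 10.00 to 10.14 with a median of 10.09. Without CYTOR LNA replicate 2 both rose, NEU1 by 0.20 (SE 0.060, adjusted p = 0.049) and GLA by 0.24 (SE 0.058, adjusted p = 0.012).

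GUSB, the beta-glucuronidase gene that is often used as a reference gene in expression studies, had groups that did not overlap. Its values were 8.98 to 9.08 after the CYTOR LNA, with a median of 9.02, and 8.83 to 8.98 in controls, with a median of 8.92. The log2 fold change of 0.12 (SE 0.052, adjusted p = 0.23) did not pass, nor did it without replicate 2 (0.14, adjusted p = 0.18). GLB1, the beta-galactosidase gene, was at 0.01 (SE 0.055). HEXA, a subunit of beta-hexosaminidase, was at 0.04 with a mean of 6.56, within 0.1 of the filter, and so near background signal. At an unadjusted p under 0.05, 4 of the 6 glycosidase genes were higher, where 10.2% of all tested genes were. Without CYTOR LNA replicate 2, GLA, NEU1 and GUSB were higher at that threshold and GAA did not reach it. Within batch 1, which holds a single silenced array, GLA (-0.06) and GLB1 (-0.12) were lower and the other glycosidase genes higher. With so few genes, these counts and the shared direction over all arrays cannot be read as a result about glycosidases.

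No protease gene passed the test at its brightest probe, and 6 of the 9 tested were above 0, where 52.1% of all tested genes were. By limma at an unadjusted p under 0.05, 3 of the 9 were higher and 0 lower, where 10.2% and 11.4% of all tested genes were. Without CYTOR LNA replicate 2, CTSB and CTSH were higher at that threshold, CTSC and CTSD were lower, and CTSA and CTSF did not reach it. The counts are too small to be read as a result about proteases. CTSB, cathepsin B, a cysteine protease that tumour cells can secrete, had a fold change of 0.16 at ILMN_2359742 (SE 0.066, adjusted p = 0.17). Its silenced values had a lowest of 8.41, a median of 8.79 and a highest of 8.84, against 8.42, 8.53 and 8.63 in controls. The lowest silenced value was that of replicate 2, below every control, and the other 5 silenced arrays were above every control. Its second probe, ILMN_1696360, was higher on all 6 silenced arrays, from 7.06 to 7.31, than on any control, from 6.88 to 7.02 (0.22, SE 0.048, adjusted p = 0.0050). At that probe replicate 2 was among the high arrays, at 7.29. Without replicate 2 the brightest CTSB probe rose by 0.27 (SE 0.062, 1.21-fold, adjusted p = 0.0069).

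The aspartic protease gene CTSD had values of opposite sign in the batches, a difference that was not tested. It was 0.39 higher on the single silenced array of batch 1 and 0.20 lower on the silenced arrays of batch 2, without replicate 2 at an adjusted p of 0.058. Over all arrays it was at -0.03 (SE 0.077), with silenced values from 8.52 to 9.09 and controls from 8.63 to 8.90. CTSC, which activates serine proteases of immune cells, also differed in sign at its brightest probe, with 0.25 in batch 1 and -0.19 in batch 2. Over all arrays that probe was at -0.06 (SE 0.068). Its second probe, ILMN_1696347, was at -0.17 (SE 0.055, limma adjusted p = 0.061), and its dimmer probes were at -0.06 and 0.04. CTSL, a cysteine endopeptidase, was at -0.05 (SE 0.064) and at -0.09 and 0.00 at its other probes.

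The other proteases were between 0.01 and 0.13. CTSA, a carboxypeptidase that stabilises the sialidase and beta-galactosidase, was at 0.13 (SE 0.054, adjusted p = 0.20), CTSH, an aminopeptidase, at 0.11, CTSF at 0.09, the carboxypeptidase CTSZ at 0.08 and TPP1, a tripeptidyl peptidase, at 0.01. CTSS, known from antigen-presenting cells, was below the filter with means of 6.49 after the CYTOR LNA and 6.43 after the control. Of 8 markers of macrophages and other leukocytes, PTPRC (6.44), TYROBP (6.43) and CD163 (6.50) were also below the filter. CD14 alone of the 5 tested rose, by 0.33 (SE 0.059, adjusted p = 0.00057). Its other probe was at 0.06. Without CYTOR LNA replicate 2 the CD14 value was 0.42, and that array differed by 0.10 from the controls of its batch. Of the 5 tested markers 3 were below 0 (median -0.04). The summed linear signal of the 8 markers, CD14 included, ran from 892 to 987 on the silenced arrays and from 861 to 913 on controls. The linear array median was 92.5 for a single probe, so much of this sum is near background signal. Its part in the lysosomal values was not tested. The 6 fibroblast markers had sums of 521 to 545 and 526 to 543, and 5 of them were below the filter.

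Lipid and acyl hydrolases did not pass, 0 of 4 by limma, where 7.89% of all tested genes did. At an unadjusted p under 0.05 the count was also 0 of 4, where 11.4% of all tested genes were lower and 10.2% higher. With so few genes these counts say little about the class. PPT1, which removes palmitate from proteins, was at 0.09 (SE 0.051), with values of 10.68 to 10.80 after the CYTOR LNA and 10.56 to 10.72 in controls. LIPA, the acid lipase of cholesteryl esters, was at 0.06 (SE 0.060), with a replicate 2 value of 10.02 above the other silenced arrays. ASAH1, the acid ceramidase gene, was at -0.03 (SE 0.038). PSAP, the precursor of the saposin activators, was at 0.01 (SE 0.076) and at 0.09 at its second probe, and its silenced values spread from 11.35 to 11.81.

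Membrane and sterol-export genes did not pass either, 0 of 6 by limma, where 7.89% of all tested genes did. The count was also 0 of 6 at an unadjusted p under 0.05, where 11.4% of all tested genes were lower and 10.2% higher. These counts too are small. LAMP1 was at 0.04 (SE 0.053) and LAMP2 at 0.04 (SE 0.052), the major glycoproteins of the lysosomal membrane. The 5 further LAMP2 probes, which can detect different transcripts, were all above 0, from 0.01 to 0.15. NPC1, the membrane exporter of cholesterol, was at 0.11 (SE 0.068), a value of 0.33 in batch 1 and 0.02 in batch 2. NPC2, its soluble partner, was at 0.00 (SE 0.043), SCARB2, a receptor that carries glucocerebrosidase to the lysosome, at -0.01 (SE 0.055), and the calcium channel gene MCOLN1 at 0.01 (SE 0.047).

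**Figure D4:**
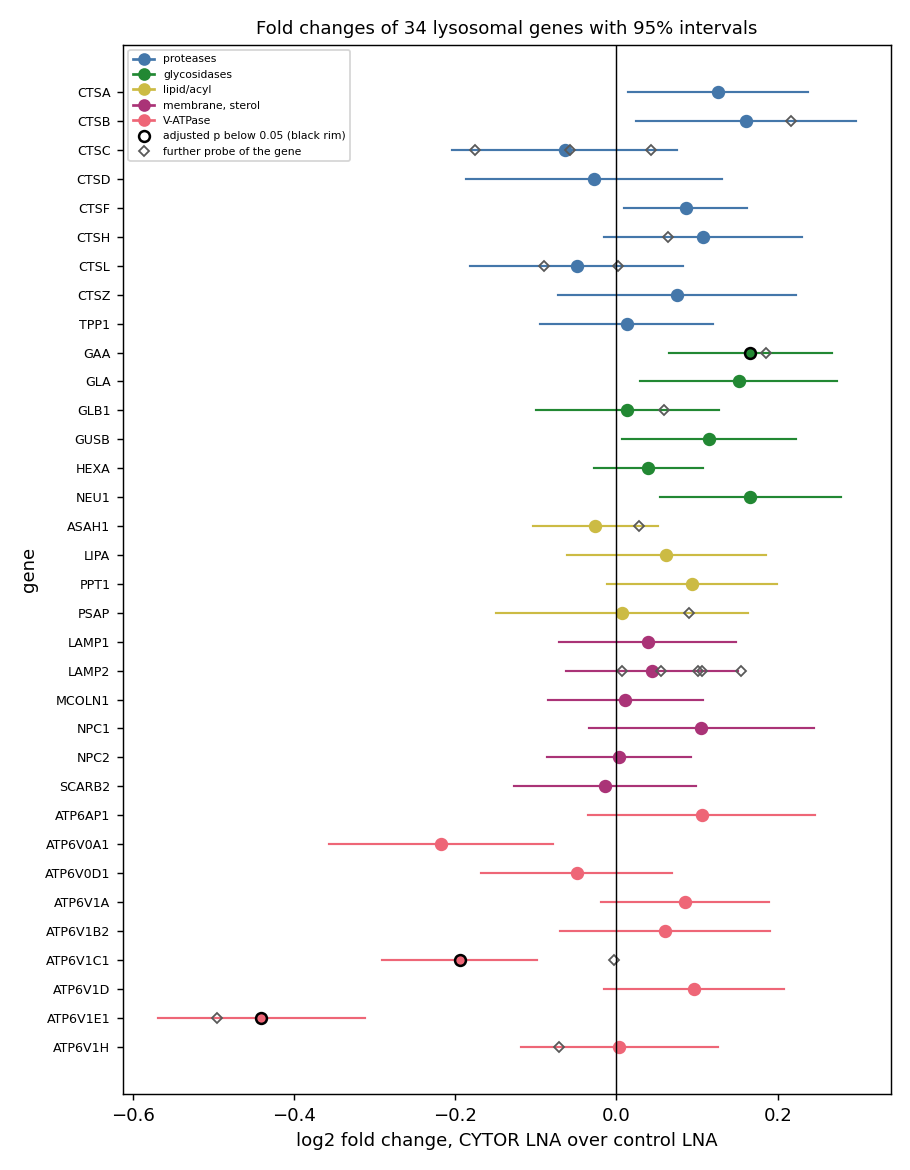
Log2 fold change, CYTOR LNA over control LNA, with 95% intervals from limma for the brightest probe of the 34 tested genes (filled circles, coloured by role, black rim where the adjusted p is below 0.05) and for their further probes (open diamonds). The 6 glycosidases lie above 0, and ATP6V1E1 lies farthest from 0 at both of its probes, -0.44 and -0.50.

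The promoter sites shown above can be set beside the fold changes, as a description with no test. The 8 tested genes with CACGTG in the window had a median log2 fold change of 0.06, from -0.05 to 0.17, and 6 of them were above 0. The 17 tested genes with a window but no such site also had a median of 0.06, from -0.44 to 0.15, with 12 above 0. LAMP1, with its 6 sites, and MCOLN1, with 2, were at 0.04 and 0.01, beside 0.17 for GAA. A match describes the letters of this window and is no evidence of binding.

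Genes that work with these proteins were examined as further lists, whose counts stand beside 2.49% higher, 5.41% lower, 52.1% above 0 and a median of 0.00 among all tested genes. Among 31 tested lysosomal hydrolases and activators outside the 34 genes, 1 rose, 0 fell and 30 did not pass, and 26 were above 0 (median 0.06). The riser was CTSV, cathepsin L2, a close paralogue of CTSL, with 8.24 to 8.40 after the CYTOR LNA and 7.91 to 8.11 in controls (0.32, SE 0.051, 1.25-fold, adjusted p = 0.00015). Its values did not overlap between groups, while CTSL itself did not pass. Of 30 lysosomal membrane proteins and transporters 2 rose, 0 fell and 13 were above 0 (median -0.02). The 2 were SIDT2 (0.21, SE 0.061, adjusted p = 0.040) and LITAF (0.18, SE 0.052, adjusted p = 0.042), both with overlapping groups. The calls were lost in 11 (SIDT2) and 18 (LITAF) of 27 alternative settings. Without CYTOR LNA replicate 2, LITAF was at 0.17 (limma adjusted p = 0.081) and was not called.

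Of 20 other V-ATPase subunits and assembly factors, 1 fell, 0 rose and 9 were above 0 (median -0.004). WDR7, a subunit of the rabconnectin-3 complex that regulates pump assembly, was 1.30-fold lower, from 6.90 to 7.03 on silenced arrays and from 7.31 to 7.47 on controls (-0.38, SE 0.042, adjusted p = 5.9e-07). A second WDR7 probe gave -0.36. Its complex partners DMXL1 and DMXL2 were at -0.03 and 0.01 at means below 6.70. The further accessory protein ATP6AP2 was at 0.16 (SE 0.049, adjusted p = 0.057).

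In the sorting of hydrolases, 1 of 9 genes fell, 0 rose and 3 were above 0 (median -0.003). IGF2R, the large mannose 6-phosphate receptor that carries hydrolases from the Golgi and also takes them up at the cell surface, was 1.68-fold lower. Its values were 9.07 to 9.42 with a median of 9.26 after the CYTOR LNA, and 9.83 to 10.19 with a median of 9.97 in controls (-0.75, SE 0.070, adjusted p = 3.5e-08). The groups were far apart. The smaller receptor M6PR was at 0.00 (SE 0.057), and GNPTAB and GNPTG, which encode subunits of the tagging enzyme, were both at 0.01.

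Among 16 transcription and mTORC1 docking factors, 1 rose, 1 fell and 9 were above 0 (median 0.05). RRAGB, a Rag GTPase that brings mTORC1 to the lysosome, rose 1.26-fold (0.34, SE 0.053, adjusted p = 0.00012), from 8.58 to 8.67 against 8.19 to 8.43, and its second tested probe gave 0.30. FNIP2, a partner of folliculin in the control of Rag GTPases, fell (log2 fold change -0.28, SE 0.042, adjusted p = 7.2e-05). Its other probe was at -0.09. TFE3 was at -0.09 (SE 0.053) and MITF at -0.05 (SE 0.042), and TFEB was below the filter. Of 4 tested cystatins, the inhibitors of cysteine cathepsins, the limma test passed 0 and 2 were above 0. At an unadjusted p under 0.05, 1 was lower, where 11.4% of all tested genes were. The abundant members CSTB and CST3 were at 0.06 and 0.05.

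**Figure D5:**
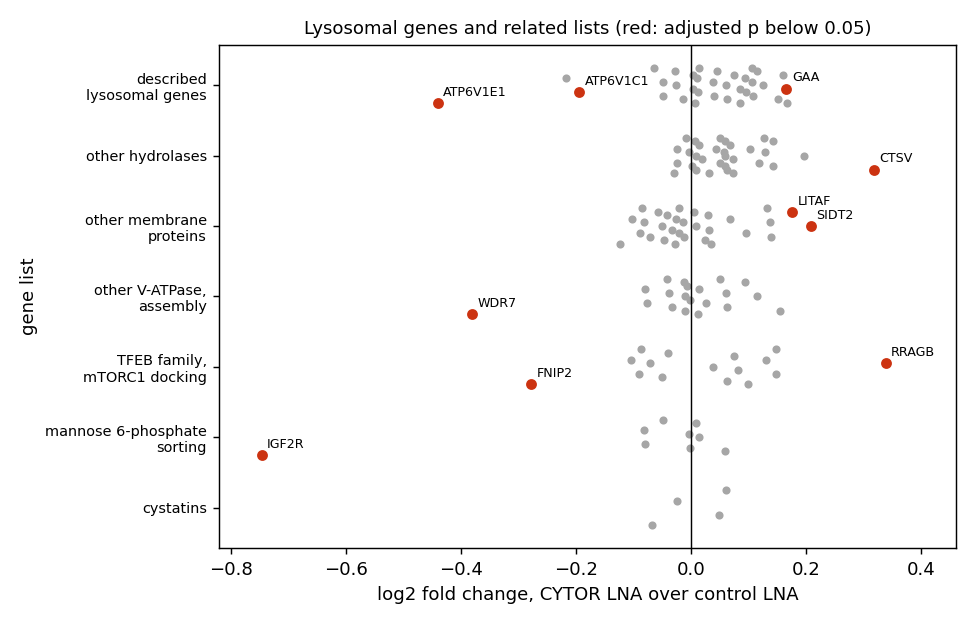
Log2 fold change, CYTOR LNA over control LNA, of each tested gene in the lysosomal set and in 6 related lists, with genes past the test in red. IGF2R at -0.75 and WDR7 at -0.38 are the lowest of their lists, and most other points lie between -0.2 and 0.2.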

How the data were processed

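Illumina bead arrays of 1 colour measured total RNA of MDA-MB-231 cells, 6 arrays per group. The deposited table holds log2 values for 47323 probes (784 further rows have no value), made by the authors with lumi per the submitters' processing notes. Its version, and how values were transformed and normalized, were not given in the sources used here. The batch term had an unadjusted p below 0.05 for 1.79% of probes, a smaller share than chance gives. Whether batch was adjusted for before deposit is not stated in the labels. If it was, the p-values may be too small and the within-batch differences are those of adjusted values. A fold is 2 to the power of a difference in log2 value, and background signal can make it too small at dim probes.

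Gene names came from the platform annotation (30113 with 1 gene symbol, 8 with several, 17202 with none), with symbols updated through RefSeq. A probe was tested if its mean was at least 6.52, the median over probes, which left 23662, with limma 3.58.1 in R 4.3.3 (lmFit, eBayes with an intensity trend, group and batch, 9 residual degrees of freedom). The fit was tested on simulated data. No detection p-values were used. Precision is limited by how many arrays there are.

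The described genes, the related lists and the alternatives were chosen with earlier results of these data known. All 36 genes are named, and from the other lists the genes past the test, and further list members were chosen after their values were seen. Both groups number their replicates alike, but a number can stand for different batches in the groups, and the numbers were not taken as pairs. Correlations of same-numbered deviations ran from -0.17 to 0.18, and from -0.23 to 0.27 after the batch term.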

Additional observations from a re-analysis of the deposited data

Results flagged for a closer look

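In groups of 6 arrays, 11 values of the lysosomal genes lay apart from the other 5 arrays of their group by Dixon's test at 95%. The test covered 92 groups, 70 of them of these genes, where chance gives about 1 in 20 for independent groups. Values of the same array are not independent. The share over all tested genes was not computed, so the count cannot be read as particular to lysosomal genes. Of the 11 values, 6 belong to CYTOR LNA replicate 2, the single silenced array of batch 1. On that array ATP6AP1 (9.83, next 10.25) and CTSB (8.41, next 8.69) were the lowest of the silenced group. CTSD (9.09, next 8.72), GAA (7.21, next 6.94), LIPA (10.02, next 9.79) and MCOLN1 (7.69, next 7.55) were its highest there. Among silenced arrays, replicate 6 was also low for LAMP1 (10.74, next 10.90). In controls, replicate 6 was low for ATP6V0D1 (8.58, next 8.70) and high for ATP6V1D (11.06, next 10.91), replicate 4 was high for NEU1 (8.40, next 8.22) and replicate 3 was low for SCARB2 (9.90, next 10.01).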

How the results depend on the processing

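The counts and the median were recomputed under 27 alternatives, 12 of which left out 1 array each. The falls of ATP6V1E1 (log2 fold change -0.56 to -0.39), IGF2R, WDR7 and FNIP2 and the rise of CTSV kept direction and call in all 27. ATP6V1C1 lost its call with the mean of its probes (-0.10, adjusted p = 0.10). Batch 1 holds 1 silenced array, so calls gained or lost within it say little about stability. There ATP6V1C1 (-0.17, against -0.19) and RRAGB (0.29, against 0.34) were not called at differences close to those of all arrays, and CTSD turned to 0.39. Between 2 and 3 lysosomal genes were lower in every alternative. The number of lysosomal genes higher (1) was 3 with batch as a random block, 2 within batch 1, 4 within batch 2, 0 with no filter on dim probes, 2 when testing only the brightest 30% and 3 when probes of a gene were averaged, and ran from 0 to 4 when arrays were left out, reaching 4 once CYTOR LNA replicate 2 was dropped and 0 on dropping any of silenced arrays 3, 4 and 5 or controls 3, 5 and 6. The median log2 fold change of the lysosomal genes stayed between 0.01 and 0.06. Over all tested genes 316 were higher, against 494 without the batch term, 712 with batch as a random block, 680 within batch 1 and 198 to 364 when arrays were left out, 198 of these without control replicate 2. With batch as a random block 1041 were lower, against 687. GAA lost its call in 12 alternatives (adjusted p up to 0.53), LITAF in 18 and SIDT2 in 11. ATP6V0A1 gained a call in 8. The causes were not tested. With the replicate block 2 lysosomal genes were lower and 1 higher, with 594 genes lower and 245 higher over all tested genes. Same-numbered samples deviated together for some numbers and apart for others, so the numbers were not read as pairs. Signals near the array median, as for CTSS, HEXA, ASAH1, GAA and CTSF, limit what these arrays can show.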
